A study of Homo sapiens with 4 samples.

Results

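The RBM genes named with a number were examined in RNA immunoprecipitation sequencing (RIP-seq) of MDA-MB-231 cells, a human triple negative breast cancer line. The members were all rows of the deposited transcript table whose gene symbol is RBM followed by a number and at most 1 letter. RBM15 and RBM15B, which belong to the m6A methyltransferase complex, were left out, as were pseudogenes. This gave 219 transcripts of 33 genes, out of 75165 transcripts of 20298 genes. In every sample the cells carried a lentiviral 3x flag-YTHDC1 construct, delivered at a multiplicity of infection of 4 and selected with 2 μg/ml puromycin over 4 days, so the cells are an overexpression model and not cells with native levels of YTHDC1 alone. The 2 IP libraries hold RNA recovered with an anti-flag antibody (5 μg, from lysate with 500 μg of protein) and the 2 input libraries hold RNA of lysate with 50 μg of protein, in both cases after UV crosslinking with 3 exposures of 120000 μJ/cm2. The labels call the input total RNA, while the protocol describes a nuclear lysate.

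The study sought transcripts bound by YTHDC1 by setting IP against input. The deposited table gives no values library by library. It has 1 level for each transcript, the authors' mean of the size-factor normalized counts over all 4 libraries, here the mean normalized count, and beside it the authors' own comparison of IP with input, which was not used here. All values below are therefore levels over IP and input together. They carry no error, they allow no test, and they do not say whether a transcript was higher in the IP. How deeply each library was sequenced is unknown. The counts are not divided by transcript length, so they measure how many reads a gene or isoform received and do not rank genes or isoforms by number of molecules.

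As background, RBM genes encode proteins with RNA-binding motifs, most of them with RNA recognition motifs, and they act at many steps of RNA life. RBM8A is a core subunit of the exon junction complex, RBM22 lies in the active spliceosome, RBM5, RBM10, RBM17, RBM25 and RBM39 influence splice site choice, RBM7 belongs to the NEXT complex that feeds nuclear RNA to the exosome, and RBM28 and RBM34 are nucleolar. Genes of splicing factors often give rise to isoforms with a premature stop codon, which nonsense-mediated decay removes in the cytoplasm, and to isoforms that keep an intron and can stay in the nucleus. YTHDC1 is the nuclear reader of N6-methyladenosine in RNA, and a nuclear lysate holds RNA that has not yet met cytoplasmic decay.

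Most counts of the RBM genes lay on protein-coding isoforms. Of the 219 transcripts, 128 were annotated as protein-coding, 41 as retained intron, 30 as processed transcript (spliced RNA with no open reading frame assigned) and 20 as nonsense-mediated decay. The mean normalized counts of all 219 summed to 69325, which was 0.208% of the table. Protein-coding isoforms held 86.4% of this sum, nonsense-mediated decay isoforms 5.16%, processed transcripts 4.55% and retained-intron isoforms 3.91%. The retained-intron isoforms were thus many but low, with a median mean normalized count of 18.6, against 60.8 for nonsense-mediated decay isoforms and 162 for protein-coding isoforms. The highest single value of the family, 3801, belonged to RBM12B-201, and the lowest, 3.50, to the retained-intron isoform RBM28-207.

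**Figure D1:**
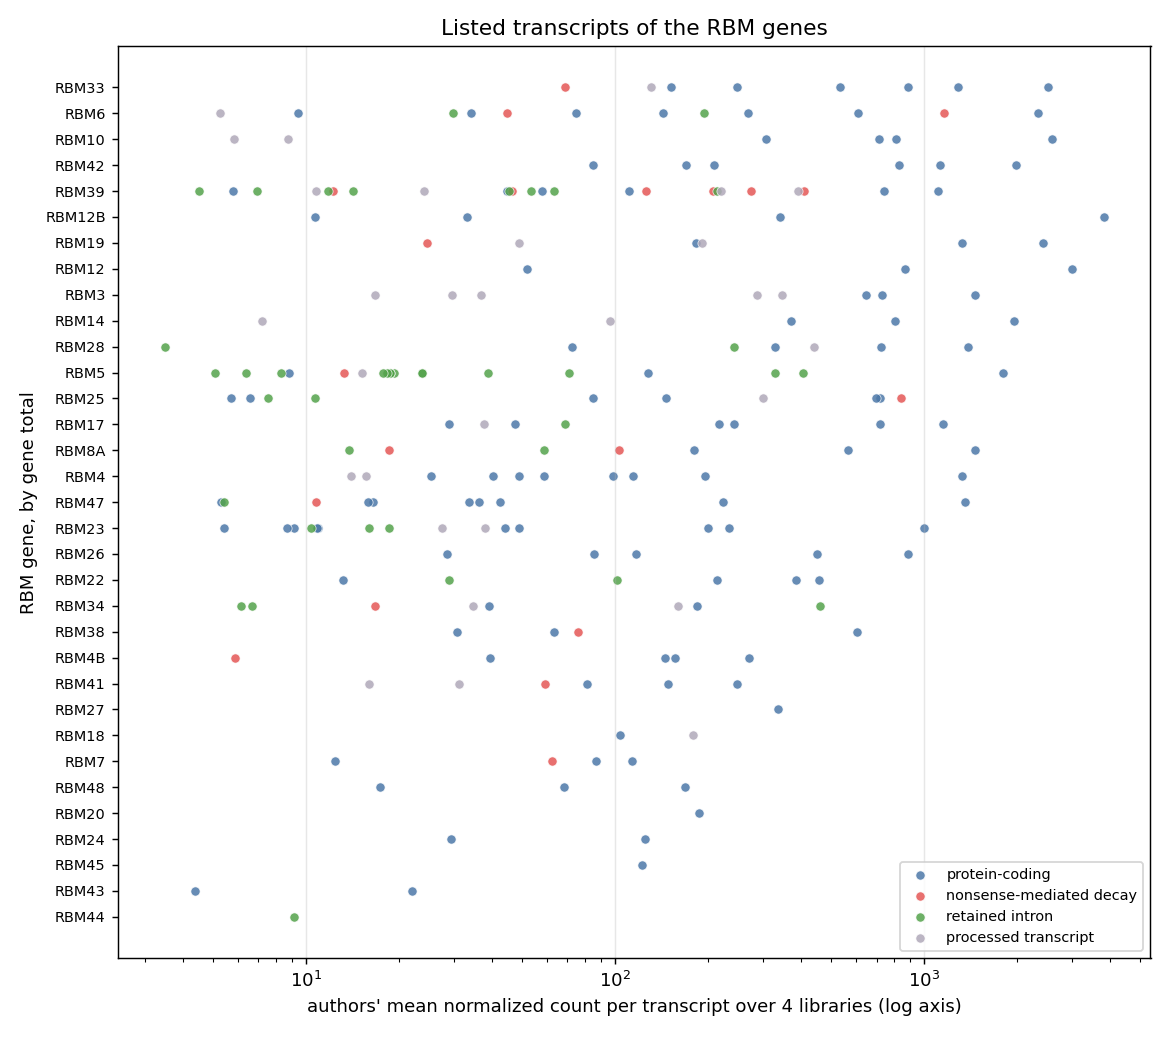
Each point is 1 of the 219 listed RBM transcripts, placed by the authors' mean normalized count over 4 libraries (log axis) in the row of its gene, with genes ordered by gene total and colours giving the annotated type. The highest point of most rows is protein-coding, while in RBM25, RBM34, RBM18 and RBM44 it is of another type.

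Set beside the rest of the table, the make-up of the family was close to that of the sum over the 14050 protein-coding genes. In those genes, protein-coding isoforms held 87.6% of the summed counts, nonsense-mediated decay isoforms 4.22%, retained-intron isoforms 4.16% and processed transcripts 4.02%. By rows, 9.13% of the RBM transcripts were nonsense-mediated decay isoforms against 9.86% in protein-coding genes, and 18.7% were retained-intron isoforms against 17.2%. No test of these differences was possible. The 11 SRSF genes, which encode the SR splicing factors, had 31.8% of their counts on nonsense-mediated decay isoforms, and the 23 HNRNP genes, which encode heterogeneous nuclear ribonucleoproteins, had 16.8%. These are shares of summed counts. In the HNRNP genes 1 isoform gave 11996 of the 24807 counts on such isoforms, and the median share over genes was 0% in the HNRNP genes as in the RBM genes, while it was 11.4% in the SRSF genes. At least 1 nonsense-mediated decay isoform was listed for 39.4% of the RBM genes, 47.8% of the HNRNP genes and 90.9% of the SRSF genes. Over the protein-coding genes this share was 30.1%. The RBM genes had a median of 6 listed transcripts per gene and the protein-coding genes 4, so these shares were not compared at equal numbers of transcripts.

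**Figure D2:**
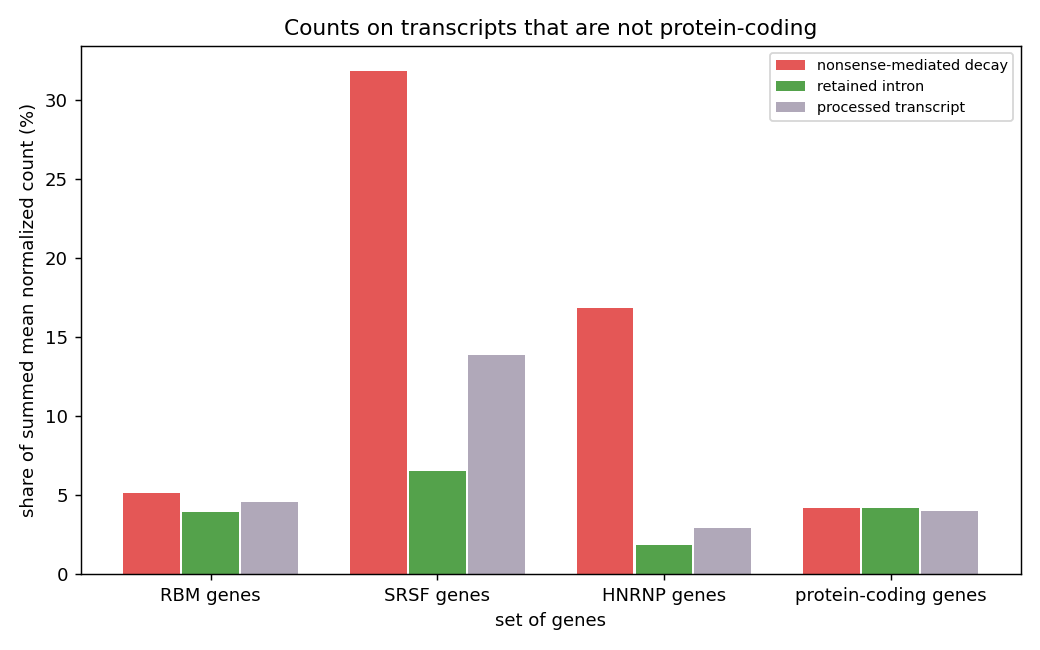
Bars give the share (%) of the summed mean normalized count on nonsense-mediated decay, retained-intron and processed transcripts in 33 RBM, 11 SRSF, 23 HNRNP and 14050 protein-coding genes. The RBM bars, at 5.16%, 3.91% and 4.55%, stand near those of the protein-coding genes, and the nonsense-mediated decay bar of the SRSF genes reaches 31.8%.

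The share on nonsense-mediated decay isoforms came mostly from 3 of the 33 genes. RBM6, RBM39 and RBM25 held 87.2% of it, and without them the share of the family was 0.798%. They were picked as the genes with the most such counts, so the share had to fall. No such removal was made for the other protein-coding genes. Among the 20 RBM genes with a total of at least 1000 normalized counts, these 3 (15.0%) had more than 10% of their counts on such isoforms, and of all 5314 protein-coding genes with a total that high, 14.6% did. The share of such genes in the family was thus close to that over these protein-coding genes. Of the 20, 12 had no listed isoform of this kind, and the median share was 0% both in the 20 and in the 5314.

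RBM25 (ENSG00000119707.14, chromosome 14 from 73058534 to 73123899 in GRCh38.p14), a splicing factor associated with U1 snRNP, was the only 1 of these 20 genes whose transcript with the most counts was not protein-coding. This transcript, RBM25-207 (ENST00000528081.5), is a nonsense-mediated decay isoform and had a mean normalized count of 842, or 29.9% of the gene total of 2818. The protein-coding isoforms RBM25-204 and RBM25-205 followed closely at 718 and 698. All 6 protein-coding isoforms together held 58.8% of the gene, so coding RNA still received most of its counts. A processed transcript, RBM25-211, added 299.8 (10.6%), and 2 retained-intron isoforms held 0.647%. A nonsense-mediated decay share as high as that of RBM25 was present in 311 of the 5314 genes (5.85%).

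RBM39 (ENSG00000131051.24, chromosome 20 from 35701347 to 35742260), a splicing factor and transcriptional coactivator that aryl sulfonamide drugs send to degradation, was spread over the most isoforms. It had 24 listed transcripts, a number that 0.199% of the protein-coding genes reached. The isoform with the most counts, the protein-coding RBM39-214 (ENST00000434927.5), had a mean normalized count of 1111 and held 26.4% of the gene total of 4203, the lowest such share among the 29 members with at least 2 listed transcripts. The protein-coding RBM39-204 came next at 743. Protein-coding isoforms held 49.3% of RBM39 in all. The 6 nonsense-mediated decay isoforms held 25.6%, led by RBM39-210 at 409, RBM39-216 at 275 and RBM39-236 at 206. In contrast to RBM25, this share was divided among several isoforms. The 4 processed transcripts of RBM39 held 15.3%, and 8 retained-intron isoforms, from 4.50 to 213 normalized counts, held 9.81%.

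RBM6 (ENSG00000004534.15, chromosome 3 from 49940150 to 50077249), a relative of RBM5 and RBM10, had 12 listed transcripts and a total of 4899. Its protein-coding isoform RBM6-201 had 2331 normalized counts (47.6%), and the nonsense-mediated decay isoform RBM6-202 (ENST00000419610.5) had 1157 (23.6%). This is the nonsense-mediated decay isoform with the highest value in the family. A second one, RBM6-213, stood at 44.7, so 1 isoform carried nearly all of the gene's 24.5% share.

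The remaining genes had little on nonsense-mediated decay isoforms where the total was high. RBM8A, itself a component of the complex that marks premature stop codons for decay, had 5.04% on 2 such isoforms, and RBM33 had 1.18% on 1. Below a total of 1000, RBM7 had 22.8% of its 274 counts on RBM7-206, RBM41 had 10.1% of 583 and RBM38 had 9.78% of 775. These last shares rest on isoforms with mean normalized counts between 59.1 and 75.8.

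Counts on retained-intron isoforms were also uneven, and RBM5 held 37.1% of those of the family. RBM5 (ENSG00000003756.17, chromosome 3 from 50088919 to 50119021), a regulator of alternative splicing studied for its part in apoptosis, had 19 listed transcripts, of which 14 were retained-intron isoforms. Its protein-coding isoform RBM5-201 led with 1791 normalized counts (60.5% of 2960). The retained-intron isoforms RBM5-219 and RBM5-213 followed at 406 and 329.6, while 11 of the 14 were below 50. Together the 14 held 33.9% of the gene. Of the 5314 protein-coding genes with a total of at least 1000, 163 (3.07%) had as high a share. Without RBM5, which held the most such counts, the retained-intron share of the family had to fall and was 2.57% in place of 3.91%. RBM5 and RBM6 lie 11669 bases apart in GRCh38.p14, yet the first had 0.448% of its counts on nonsense-mediated decay isoforms and the second 24.5%, and for retained-intron isoforms RBM6 had 4.57%. RBM10, the third of these relatives, on the X chromosome, had 99.7% of its total of 4437 on 4 protein-coding isoforms and no listed transcript of either kind.

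RBM22, RBM28 and RBM34 also had a sizeable retained-intron share. RBM22, which sits near the catalytic core of the spliceosome, had 10.9% of its 1199 counts on 2 such isoforms. RBM28, a nucleolar protein, had 7.71% of 3194, nearly all of it on RBM28-208 at 243. RBM34 (ENSG00000188739.15), also nucleolar, had a total of 906, and its retained-intron isoform RBM34-204 (ENST00000468751.5) received the most counts of its transcripts, 460, or 50.8%. The protein-coding RBM34-203 stood at 183, and both protein-coding isoforms together held 24.5%. RBM34 was thus 1 of 4 members with less than 50% of their counts on protein-coding isoforms, beside RBM39, RBM18 and RBM44. RBM44 had only 1 listed transcript, at 9.11. How many of all protein-coding genes fall below 50% was not counted, so this number is not given as a trait of the family. Over the 20 genes with a total of at least 1000, RBM5 and RBM22 (10.0%) had more than 10% on retained-intron isoforms, against 13.3% of the 5314 protein-coding genes.

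**Figure D3:**
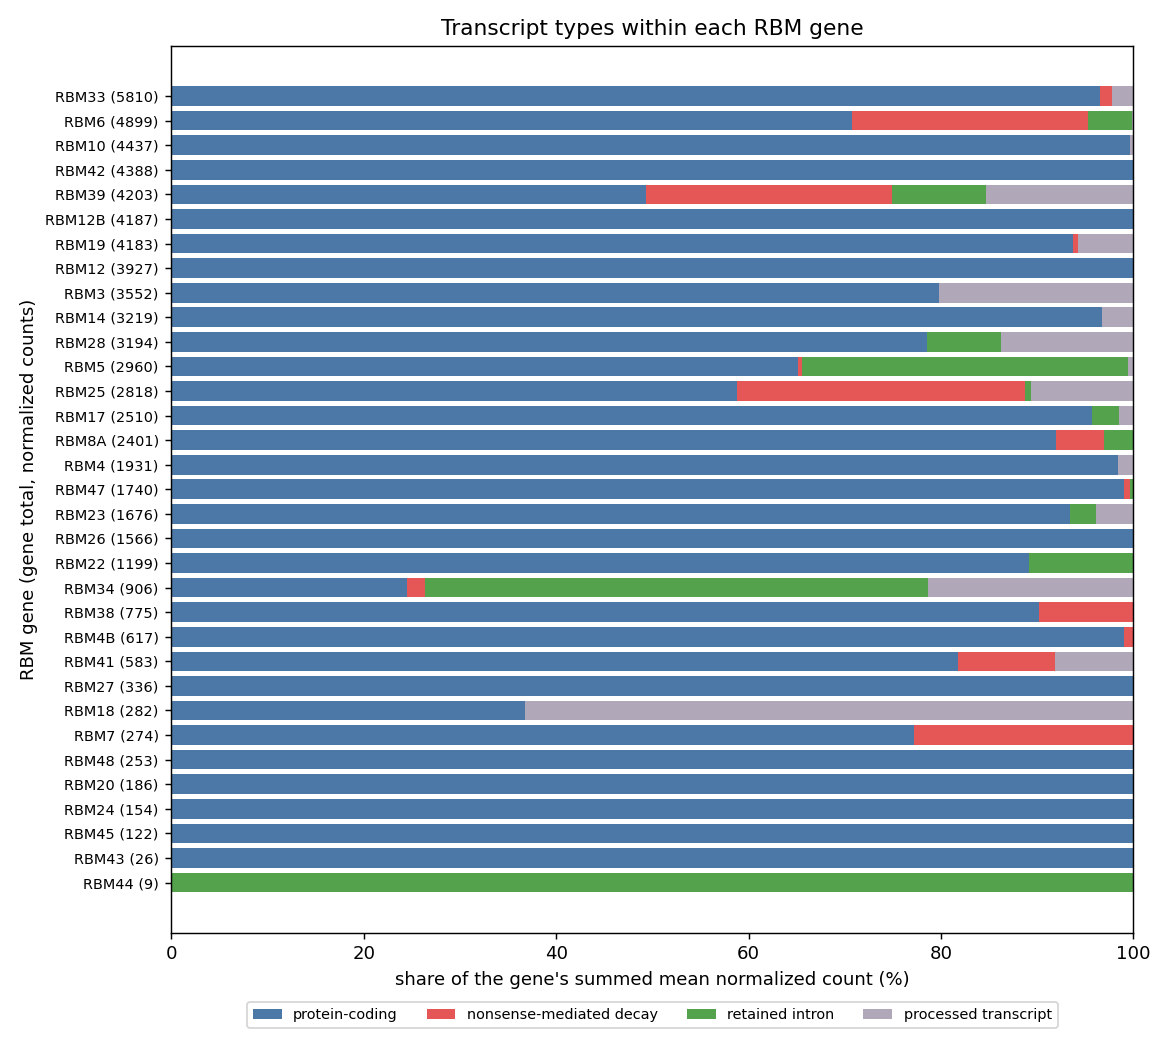
Each bar divides the summed mean normalized count of 1 RBM gene into transcript types (%), with the gene total in parentheses. The nonsense-mediated decay part is widest in RBM25 (29.9%), RBM39 (25.6%) and RBM6 (24.5%), and the retained-intron part is wide in RBM34 (52.2%) and RBM5 (33.9%), while the 1 listed RBM44 transcript (9.11 normalized counts) is a retained-intron isoform.

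Ordered by role, the 11 spliceosome and exon junction genes (RBM5, RBM6, RBM8A, RBM10, RBM17, RBM22, RBM25, RBM39, RBM41, RBM42 and RBM48) were all listed, with 107 of the 219 transcripts. They had 79.4% of their counts on protein-coding isoforms, 10.8% on nonsense-mediated decay isoforms and 6.30% on retained-intron isoforms. The nonsense-mediated decay share came mostly from RBM6, RBM39 and RBM25 and was not shared by the group. RBM10, RBM17, RBM22, RBM42 and RBM48 had no listed isoform of this kind, and RBM5, RBM8A and RBM41 had 0.448%, 5.04% and 10.1%. Roles overlap, since RBM5, RBM10, RBM17, RBM25 and RBM39 also influence splice site choice. The shares by role therefore depend on the list in which such genes were placed. RBM42 stood apart from RBM25 and RBM39, since all 6 of its isoforms, with a total of 4388, were protein-coding. RBM17, which recognises 3′ splice sites, had 95.8% of its 2510 counts on protein-coding isoforms. RBM41 and RBM48, both linked to the minor spliceosome, had totals of 583 and 253.

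Of 13 genes of alternative splicing and mRNA regulation, 11 were listed, and RBM11 and RBM46 were not. The listed genes had 92.4% of their counts on protein-coding isoforms and 0.661% on nonsense-mediated decay isoforms. RBM3, a cold-inducible protein, had a total of 3552, of which 20.2% lay on 5 processed transcripts. RBM14, a coactivator found in paraspeckles, had 3219, and RBM47, a splicing regulator of epithelial cells, had 1740, of which RBM47-212 held 77.7%. RBM20, which controls titin splicing, and RBM24 are known mainly from muscle and heart. RBM20 had 1 listed transcript at 186, and RBM24 had 2 with a total of 154. RBM38, a p53 target, had 775. RBM45 had 122, so totals this low were not limited to RBM20 and RBM24. RBM44 had a single retained-intron isoform at 9.11 and no listed protein-coding isoform.

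The 4 genes of nuclear RNA decay and export had 96.7% of their counts on protein-coding isoforms and no listed retained-intron isoform. RBM33, which has been linked to mRNA export and to the m6A eraser ALKBH5, had the highest total of the family, 5810 over 8 transcripts, with RBM33-206 at 2509. RBM26 and RBM27, zinc finger proteins that work with the PAXT pathway of nuclear decay, had only protein-coding isoforms, 5 with a total of 1566 and 1 with 336. RBM7 had 274. The nucleolar genes RBM19, RBM28 and RBM34 had 80.3% of their summed counts on protein-coding isoforms, with RBM19 (93.7% of 4183) and RBM34 (24.5% of 906) far apart. In the last group, RBM12B and RBM12 had only protein-coding isoforms, with totals of 4187 and 3927. RBM43 had a total of 26.3. RBM18 had 2 listed transcripts, and the processed transcript RBM18-202 (179) was above the protein-coding RBM18-201 (104).

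Across the family, 10 genes had counts on protein-coding isoforms alone and 21 had at least 90% there. Among the 10, RBM20, RBM27 and RBM45 had 1 listed transcript each. The same counts were not made over all protein-coding genes. The median share on protein-coding isoforms over the RBM genes was 95.8%, against 94.6% over the 14050 protein-coding genes. The transcript with the most counts was of another type in 4 genes, namely RBM25 (nonsense-mediated decay), RBM34 and RBM44 (retained intron) and RBM18 (processed transcript). Of the 29 members with at least 2 listed transcripts, 3 (10.3%) were of this kind, against 13.1% of 11482 such protein-coding genes, 5 of 11 SRSF genes and 1 of 18 HNRNP genes. This transcript held a median of 57.8% of the gene in those 29 members and 59.7% in those protein-coding genes. It held less than 50% in 12 members (41.4%), against 32.7% of those protein-coding genes, 36.4% of the 11 SRSF and 38.9% of the 18 HNRNP genes. Over all genes, the RBM genes had a median of 6 listed transcripts and the protein-coding genes 4. These shares were not compared at equal numbers of transcripts. At the other end RBM12B-201 (ENST00000399300.6) held 90.8% of RBM12B.

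**Figure D4:**
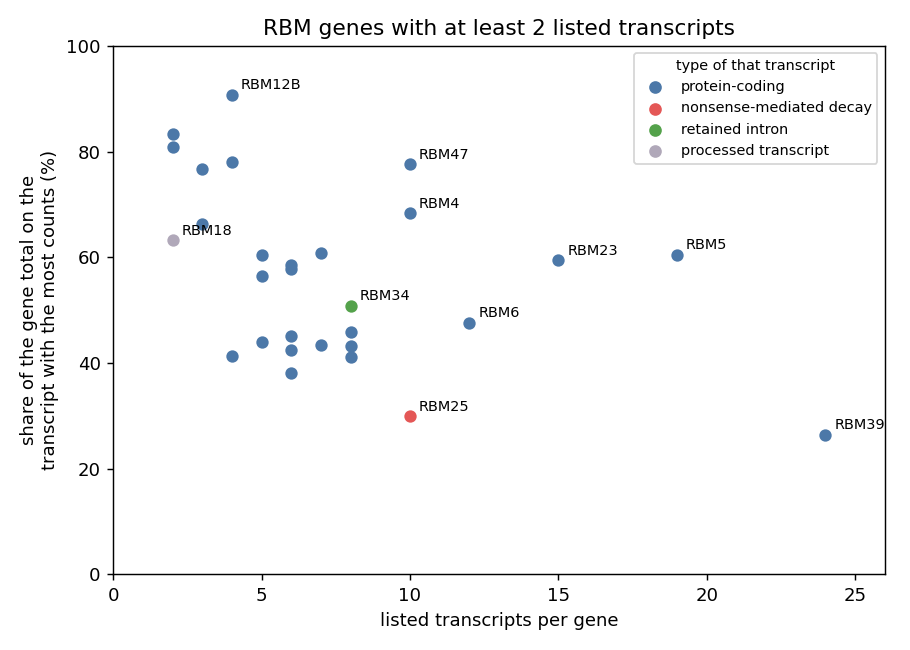
For the 29 RBM genes with at least 2 listed transcripts, the share (%) of the gene total on the transcript with the most counts is plotted against the number of listed transcripts, coloured by the type of that transcript. RBM39 combines 24 transcripts with 26.4%, RBM5 has 60.5% with 19 transcripts, and RBM12B has 90.8% with 4.

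Several values depend on how reads were divided among isoforms and neighbours. Reads that fit several isoforms were divided by estimation, so the value of an isoform such as RBM25-207 can rest on few reads of its own. The paper states that ribosomal RNA was removed from the RIP-seq RNA, which its protocol takes from nuclei. Whether reads of RNA not yet spliced were counted for retained-intron isoforms, such as those of RBM5 and RBM34, was not tested. In RefSeq, 17 of the 33 genes overlap another gene on either strand, and although the library kit was a stranded one, whether strand was used in counting is not given in the sources used here. The 17 include RBM5 (with RBM5-AS1 and SEMA3F-AS1), RBM25 (with RBM25-AS1 and LOC100422493) and RBM39 (with LOC124904980). RBM6 and RBM34 overlap no other gene. RBM4 (total 1931) and RBM4B (617), a pair of paralogues on chromosome 11, overlap by 3383 bases, and the readthrough gene RBM14-RBM4, which shares exons with RBM14 and RBM4, had 247 counts in 2 transcripts. RBM12 overlaps CPNE1, which had 5468. Reads from the shared stretches could have been counted for either gene, for RBM4 and RBM4B, which lie on opposite strands, only where strand was not used. For the paralogues RBM23 and RBM39, on chromosomes 14 and 20, the totals were 1676 and 4203, and RBM23 had 93.4% on protein-coding isoforms and no listed nonsense-mediated decay isoform.

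The labelled line was checked against marker genes. The mesenchymal genes VIM (80785), CD44 (14306) and FN1 (16414) had high totals, ESR1 and PGR were not listed and the epithelial CDH1 had 10.0. ERBB2 (4303) and the epithelial KRT18 (27123) were also present, with KRT18 above CD44 and FN1, so the markers did not all go the same way. The paper stained lung nodules grown from this line for human CK18, the KRT18 protein, so KRT18 does not speak against the label. YTHDC1, the overexpressed gene, had a total of 55488 over IP and input together.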

How the data were processed

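The authors mapped reads with STAR (2.7.2b) to a GENCODE v33 transcriptome (GRCh38 in the labels) and estimated transcript reads with RSEM (1.2.31). The authors dropped transcripts that did not reach 5 reads in 50% or more of the libraries, applied RUVSeq and fitted DESeq2. The deposited signal value is the authors' mean of the normalized counts over the 2 IP and 2 input libraries. The 4 columns of the authors' own comparison (log2 fold change, its standard error, p-value and adjusted p-value) were not used. A count test of IP against input, planned for counts of each library, was not run because the table holds none.

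Gene totals are sums over listed transcripts. Types are those of the table. All 33 member identifiers were found in a table of gene names, and positions are from RefSeq (GRCh38.p14), matched by symbol. The genes named are the 10 with the highest totals, every gene whose transcript with the most counts is not protein-coding, the 5 with the highest nonsense-mediated decay and the 5 with the highest retained-intron share among totals of at least 1000, and 6 pairs of relatives. The rest are given by role, and the values given for them were chosen after they were seen. The members and lists were chosen with earlier results of these data known. The sums were tested on simulated data. Python 3.11.15, pandas 2.3.3, numpy 2.4.6 and matplotlib 3.10.9 were used. Alternatives were minimum means of 10 and 100, medians over genes, leaving out the gene with the highest total, adding RBM15 and RBM15B, summing by type and protein-coding transcripts alone.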

Additional observations from a re-analysis of the deposited data

How the results depend on the processing

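All values are pooled over IP and input, so none has an error. With a minimum mean of 10, which left 193 transcripts of 32 genes, the RBM shares were 86.5% protein-coding, 3.82% retained intron and 4.53% processed transcript, of a sum of 69153. With a minimum of 100, which left 102 transcripts of 31 genes, protein-coding was 88.3%, nonsense-mediated decay 4.74%, retained intron 2.96% and processed transcript 4.01%, of 65743. The median over genes was 95.8% protein-coding and 0% for each other type, so the summed shares rest on a minority of genes. Without RBM33 the shares were 85.4%, 5.52%, 4.27% and 4.77% in the same order, and with RBM15 and RBM15B they were 89.4%, 4.01%, 3.04% and 3.54%. Protein-coding transcripts alone summed to 59881. The number of genes whose transcript with the most counts was not protein-coding was 3 with either minimum, where RBM44 dropped out. It was also 3 when isoforms were first summed by type, but there RBM25 dropped out. With RBM15 and RBM15B it was 4. Within genes, a minimum of 100 moved the retained-intron share of RBM5 from 33.9% to 27.7% and that of RBM34 from 52.2% to 57.3%, and the nonsense-mediated decay share of RBM25 to 31.2%, of RBM39 to 26.7% and of RBM6 to 24.6%. No paired analysis was possible because the values of the 4 libraries are given only as their mean, and for the same reason leaving out a library, other size factors, other filters on counts and the test of IP against input were not run.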
